A study of Mus musculus with 217 samples.

Results

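Heart endothelium 6 hr after lipopolysaccharide (LPS) was compared with heart endothelium at 0 hr in 10 libraries of ribosome-bound RNA, 5 at each time, out of 98 libraries in the series. They are all libraries labelled heart at these times with at least 3% of their reads on genes. Both groups came from adult C57BL/6J RiboTag EC mice (Cdh5CreERT2/+; Rpl22HA/+), in which a tamoxifen-activated Cre driven by the VE-cadherin gene switches on an HA-tagged copy of the ribosomal protein RPL22 in endothelial cells (ECs). All mice had received 5 mg of tamoxifen 4 times, every other day, from 4 to 6 weeks of age. The 6 hr mice were killed 6 hr after 10 mg/kg LPS given intraperitoneally, and the 0 hr mice are labelled control and, per the study's methods, received PBS. Tagged ribosomes were pulled from whole heart with an anti-HA antibody, so the RNA comes from any recombined cell, endocardium, capillary and large vessel together, and from RNA carried through the pull-down. Every mouse of both groups is heterozygous for the tag and for Cre. Whether each library is 1 mouse is not stated, so p-values measure the spread between these libraries.

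LPS is a wall component of Gram-negative bacteria that is sensed by the TLR4 receptor complex with its partners CD14 and MD-2. The receptor signals through MYD88 to NF-kappaB and MAP kinases, and through another adaptor route to type I interferon, whose receptor acts through JAK kinases and STAT factors. In resting heart the capillary endothelium passes fatty acids to the muscle, holds a tight barrier and keeps leukocytes and clotting at bay, and inflamed endothelium is known for adhesion molecules and chemokines that draw leukocytes in.

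Counts on genes ran from 9792631 to 26666744 in the 5 libraries at 0 hr and from 13138434 to 23947630 in the 5 at 6 hr, and 2 further libraries, 0 hr replicate 6 and 6 hr replicate 6, were left out with 2.284% and 2.41% of reads on genes. The defining endothelial genes were high in all 10 libraries. The summed level of 30 pan-endothelial markers was 29783 to 33488 CPM, counts on a gene per 1000000 counts, at 0 hr. It was lower, at 12474 to 16572 CPM, in 6 hr replicates 1 to 4, and was 32321 CPM in 6 hr replicate 5. The share of reads on genes was 60.52% to 65.74% at 0 hr, 43.69% to 54.75% in 6 hr replicates 1 to 4 and 67.66% in 6 hr replicate 5. Reads aligned to several places, which were not counted, made up 30.4% to 35.25% at 0 hr, 41.24% to 49.47% in 6 hr replicates 1 to 4 and 27.63% in replicate 5. Over all 6 libraries labelled with each time the mean share on genes differed by -7.72 percentage points (exact permutation test, two-sided, p = 0.4805). In the 10 libraries used, which were chosen by this share so that no test is given, it was 54.05% ± 8.749 (SD, n = 5) at 6 hr and 63.35% ± 1.86 (SD, n = 5) at 0 hr. The part of this share in the results below was not tested.

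The library labelled 6 hr replicate 5 stood apart from the other 4 libraries at 6 hr. Across 9465 genes its mean correlation was 0.967 with the 0 hr libraries and 0.6566 with the other 6 hr libraries, and it was the only one of the 5 in library series 1, a group of libraries read from the pattern of the deposited file names. On the first principal component, with 55.5% of the variance, it lay at -44.70, among the 0 hr libraries at -47.91 to -38.74, while 6 hr replicates 1 to 4 lay at 60.77 to 103.00. Its genes were nevertheless not all at 0 hr levels. Of 55 interferon-stimulated genes 49 lay above every 0 hr library in it, against 17.7% of all genes tested, with a median of 0.71 over the 0 hr mean on the log2 scale where replicates 1 to 4 had 3.02. Of 52 cell cycle genes 45 lay below every 0 hr library, against 19.4% of all genes, with a median of -1.50, while CXC chemokines, which attract neutrophils and lymphocytes, had a median of -0.17 in this library and 4.83 in the other 4. The label gives no reason for this, and the cause was not tested. Replicates 1 to 4 at 6 hr were all of series 2, with 0 hr replicates 3, 4 and 5, and 0 hr replicates 1 and 2 were of series 1, so replicate 5 is also the only comparison within series 1. The library was kept, each log2 change below is first that of all 10 libraries, and the value in brackets is that of the 9 libraries without it, each with its standard error after ±. Where 2 adjusted p-values of edgeR's quasi-likelihood test with Benjamini-Hochberg adjustment are given, they follow in the same order.

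**Figure D1:**
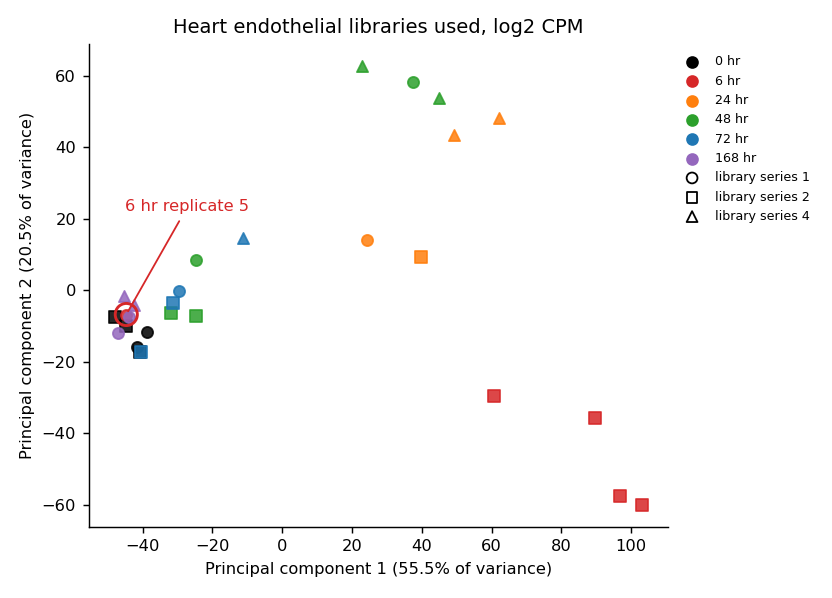
First and second principal components (55.5% and 20.5% of the variance) of log2 CPM of the 28 heart libraries used at all times, each point 1 library, each colour a time and each shape a library series. The library labelled 6 hr replicate 5 sits at -44.70 on the first component, with the 5 libraries at 0 hr, and the other 4 libraries at 6 hr sit at 60.77 or above.

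With all 10 libraries, 3597 of 16024 genes tested rose (22.4%) and 3257 fell (20.3%) at an adjusted p under 0.05 in edgeR's quasi-likelihood test. Without 6 hr replicate 5, 4453 of 15990 rose (27.8%) and 4879 fell (30.5%), and 3580 and 3230 of the calls were shared by both fits. Within library series 2 alone, 3 libraries at 0 hr against 4 at 6 hr, 3865 genes rose and 3917 fell. With 6 hr replicate 1 left out 2919 genes rose and 2086 fell. Counted by library, 635 genes (3.96%) lay above and 661 (4.13%) lay below every 0 hr library in all 5 libraries at 6 hr, and 3723 (23.2%) and 4159 (26.0%) did so without replicate 5. The median log2 change of all genes tested was -0.05 (-0.08), and this and the shares of 22.4% higher and 20.3% lower (27.8% and 30.5%) are the background of each gene list below. The lists of clotting, BMP and TGF-beta, fatty acid uptake, fatty acid oxidation and circadian clock genes lay near those shares. So did the higher counts of the complement, prostaglandin, nitric oxide and glycocalyx lists. These counts are no result about the lists. Levels of single genes are CPM over library sizes scaled by TMM unless stated otherwise. They compare libraries for one gene and not one gene with another. Summed levels of marker lists, above and below, are CPM before TMM scaling. Fewer cells of a type and less RNA per cell cannot be told apart in such bulk samples. Of the genes named here 60 of 194 have exons that overlap a gene on the opposite strand, Selp, Icam1, Mt2, Nos3 and Cebpb among them, and since the strand setting of the counting is not stated their counts may include reads of that partner.

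Among genes whose libraries did not overlap, and whose log2 CPM averaged 4 or more over both times, Mt2 and Lcn2 had the largest rises. Mt2, a metallothionein that binds zinc and copper, lay at 5.07, 1.76, 5.23, 5.81 and 5.68 CPM in the 5 libraries at 0 hr and at 10501, 6021, 8848 and 2959 CPM in 6 hr replicates 1 to 4, with 5.82 CPM in replicate 5. Only replicate 5 was near the 0 hr values, which it just exceeded, and the log2 change was 10.38 ± 1.51 (10.82 ± 1.14) with adjusted p = 3.19e-05 and 3.05e-08. Lcn2, the iron-siderophore binding protein lipocalin 2, had 18.4, 8.11, 21.0, 16.5 and 14.9 CPM at 0 hr, 3365, 7192, 5413 and 6026 CPM in 6 hr replicates 1 to 4 and 51.4 CPM in replicate 5. Every library at 6 hr was above every library at 0 hr, by a log2 change of 8.36 ± 1.18 (8.78 ± 0.92) (adjusted p = 2.62e-05 and 2.85e-08). Others of the 15 largest rises of this kind were Cxcl10 at 7.88 (8.37), Nfkbiz at 7.38 (7.85), Selp at 7.34 (7.77), Socs1 at 6.55 (7.05), Zbp1 at 5.49 (6.00), Cebpd at 4.98 (5.41), Sdc4 at 4.89 (5.32), Itgb3 at 4.78 (5.21) and Pfkfb3 at 4.75 (5.19), many of them described with their groups. Genes below that level, such as Saa3, are not ranked here.

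At Fam198b and Aplnr the falls were smaller with all 10 libraries than without replicate 5, which lay nearer to 0 hr than the other 4 did. Fam198b, whose product is a Golgi membrane glycoprotein, fell from 478, 365, 364, 486 and 508 CPM at 0 hr to 7.77, 10.6, 8.01 and 33.3 CPM in 6 hr replicates 1 to 4 and 278 CPM in replicate 5. The 2 groups did not overlap, and the log2 change was -3.10 ± 0.68 (-4.95 ± 0.44) (adjusted p = 0.00145 and 2.36e-09). Aplnr, the receptor of the vessel-forming peptides apelin and elabela, had 507, 657, 517, 517 and 522 CPM at 0 hr against 21.1, 47.6, 63.9 and 49.5 CPM in 6 hr replicates 1 to 4 and 192 CPM in replicate 5. Here too replicate 5 lay between the other 4 and the 0 hr libraries, and the log2 change was -2.86 ± 0.69 (-3.85 ± 0.72) (adjusted p = 0.00280 and 7.93e-05). Others of the 15 largest falls without overlap were Fabp5, a fatty acid binding protein, at -3.01 (-3.96), the lipase Mgll at -2.37 (-3.61), the tetraspanin Tspan2 at -2.50 (-4.45), the septin Sept4 at -2.53 (-3.98), the cadherin Dchs1 at -2.33 (-3.53), the lysosomal enzyme Gusb at -2.33 (-3.44), the chloride channel gene Ttyh3 at -2.35 (-3.88) and the intermediate filament gene Vim at -2.19 (-2.89). BC028528, Nrep and Prrg3 fell too, at -2.96 (-4.77), -2.40 (-3.85) and -2.17 (-3.67).

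**Figure D2:**
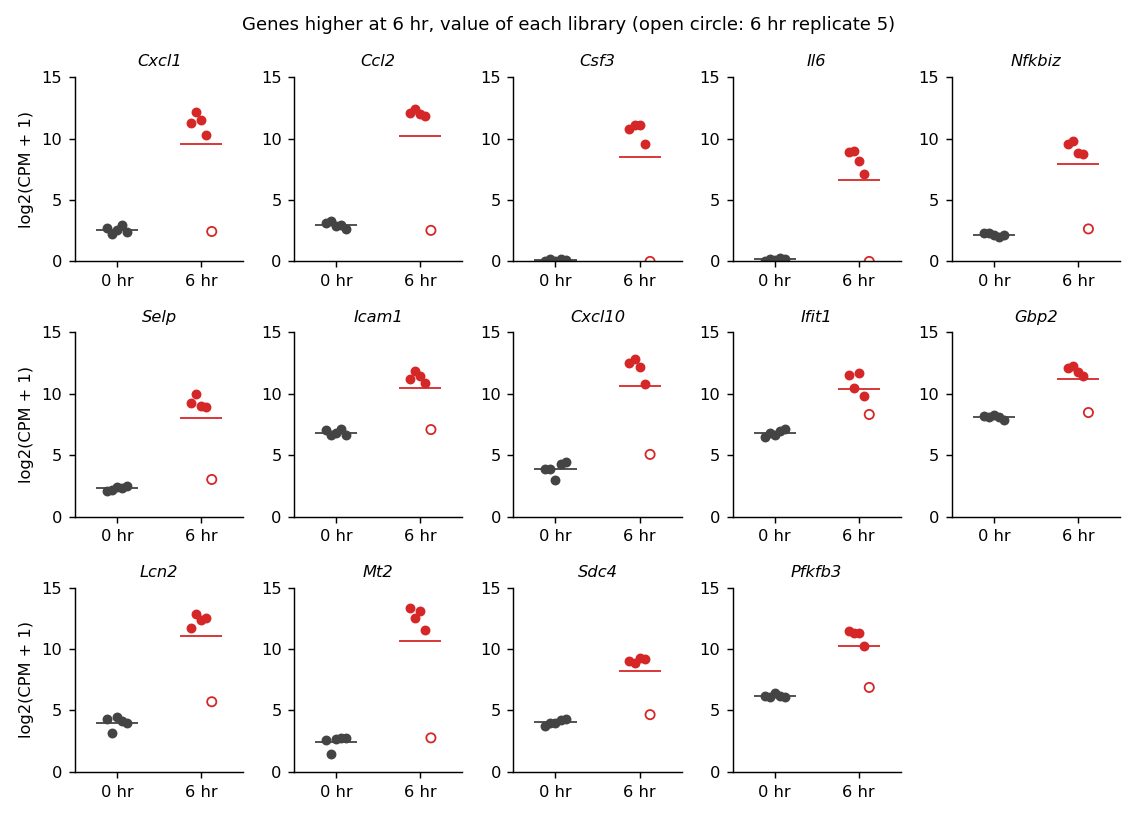
Levels of 14 genes that rose, as log2(CPM + 1), with 1 point per library at 0 and 6 hr, a line at the mean of each time and an open circle for the library labelled 6 hr replicate 5. In 6 hr replicates 1 to 4 every gene shown lies above every 0 hr library, and replicate 5 lies at or near the 0 hr libraries.

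The promoters of 4 genes that rose are printed because each is the one with the largest rise, in its group, whose stretch before the start site holds a motif searched for, of NF-kappaB factors, chemokines, adhesion molecules and interferon-stimulated genes. Each is the 250 bases before the start in RefSeq (GRCm38.p6), read 5' to 3' on the gene's strand, and capitals mark matches on either strand to the kappaB consensus, the interferon-stimulated response element (ISRE), AP-1 (TGANTCA) and E-box (CACGTG), the last being the site of MYC and clock factors. Tnfaip3 (chr10:19015411-19015660, minus strand, 1 of 2 promoters listed) holds 2 kappaB matches and the ISRE is the match at Oas3 (chr5:120777660-120777909, minus strand), while Cxcl3 (chr5:90785851-90786100, plus strand) holds 2 overlapping kappaB matches that form 1 stretch and Selp (chr1:164115014-164115263, plus strand) a single AP-1 match.
Tnfaip3: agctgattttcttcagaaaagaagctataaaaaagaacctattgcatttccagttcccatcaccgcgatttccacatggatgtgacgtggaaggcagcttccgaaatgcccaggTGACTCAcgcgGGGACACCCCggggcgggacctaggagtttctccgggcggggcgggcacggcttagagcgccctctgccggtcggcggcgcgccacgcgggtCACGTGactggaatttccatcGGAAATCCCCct
Cxcl3: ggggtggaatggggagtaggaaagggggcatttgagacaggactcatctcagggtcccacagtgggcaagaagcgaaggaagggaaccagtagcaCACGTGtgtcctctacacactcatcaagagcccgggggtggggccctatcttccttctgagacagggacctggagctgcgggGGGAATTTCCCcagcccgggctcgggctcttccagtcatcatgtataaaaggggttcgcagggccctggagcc
Selp: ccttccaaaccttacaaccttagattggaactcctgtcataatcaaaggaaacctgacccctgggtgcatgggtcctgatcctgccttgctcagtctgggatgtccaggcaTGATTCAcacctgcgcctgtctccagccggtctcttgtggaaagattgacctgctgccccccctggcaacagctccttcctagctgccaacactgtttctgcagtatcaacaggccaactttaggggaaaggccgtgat
Oas3: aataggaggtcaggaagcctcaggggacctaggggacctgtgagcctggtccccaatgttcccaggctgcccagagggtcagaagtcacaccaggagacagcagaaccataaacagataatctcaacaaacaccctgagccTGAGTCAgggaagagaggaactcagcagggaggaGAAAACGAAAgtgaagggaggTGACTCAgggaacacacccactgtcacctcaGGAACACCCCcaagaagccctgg

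Counted from the start site, the kappaB matches in Tnfaip3 begin at -125 and -12, the AP-1 match at -136 and the E-box at -33. In Oas3 the ISRE begins at -75, the AP-1 matches at -109 and -54 and a kappaB match at -23. In Cxcl3 the kappaB matches begin at -73 and -72 and the E-box at -155, and in Selp the AP-1 match begins at -139. Over 8816 gene rows tested with exactly 1 promoter listed, the window of 300 bases, 250 before to 50 after the start, held a kappaB match in 12% of genes that rose, 9.31% of genes that fell and 10.4% of all. The ISRE was held by 5.8%, 2.21% and 3.19%, and by 14 of 34 promoters (41.2%) of the interferon-stimulated genes. AP-1 was held by 5.46%, 4.03% and 4.78%, the CRE (TGACGTCA) by 3.97%, 2.44% and 3.15%, the E-box by 12.3%, 8.52% and 10.1%, GAS (TTCNNNGAA) by 7.98%, 5.74% and 6.79%, and the heat shock element (GAANNTTC) by 7.06%, 5.62% and 5.64%. The CArG box of serum response factor was held by 1.31%, 1.48% and 1.34%. With the calls made without 6 hr replicate 5 the kappaB shares were 11.3% and 9.95% and the ISRE shares 5.32% and 2.42%.

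In the TLR4 complex Tlr4 and Ly96 did not pass the test, while the co-receptor Cd14 and some adaptors rose. Of the list of receptor and adaptor genes, 9 of 19 tested rose and 2 fell (9 and 2), with a median log2 change of 0.32 (0.39). Tlr4 changed by 0.02 ± 0.23 (0.05 ± 0.25) (adjusted p = 0.954 and 0.874) and Ly96, which encodes MD-2, by -0.03 ± 0.18 (-0.04 ± 0.19) (adjusted p = 0.898 and 0.885). Cd14, which hands LPS to the receptor, was at 3.29, 3.35, 2.14, 3.09 and 3.38 CPM at 0 hr, at 60.8, 153, 56.8 and 51.1 CPM in 6 hr replicates 1 to 4 and at 3.72 CPM in replicate 5. Each of the 4 was far above all 0 hr libraries, replicate 5 was just above them, and the log2 change was 4.54 ± 0.61 (5.00 ± 0.39). Tlr2, the receptor of bacterial lipopeptides, rose by 3.84 (4.29), the adaptor Myd88 by 2.48 (2.87), the kinase Irak2 by 2.53 (2.92) and Irak3, a brake on this pathway, by 4.04 (4.47). Sigirr, another brake, fell by a log2 change of -1.59 (-2.40). The lower count of this list was 1 with any 1 of 0 hr replicate 4 or 6 hr replicates 1 and 2 left out.

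Genes of NF-kappaB and its feedback inhibitors rose together: 25 of 29 tested rose and 1 fell (26 and 1), with a median log2 change of 2.44 (2.83), and the lower count was 2 with 6 hr replicate 1 left out. Tnfaip3, which encodes the ubiquitin-editing inhibitor A20, had 23.2, 28.7, 24.4, 32.2 and 20.6 CPM at 0 hr, 1636, 1298, 728 and 472 CPM in 6 hr replicates 1 to 4 and 21.2 CPM in replicate 5. The 4 libraries did not overlap with 0 hr, replicate 5 lay within the 0 hr range, and the log2 change was 5.03 ± 0.69 (5.50 ± 0.42) (adjusted p = 1.97e-05 and 2.25e-10). Nfkbiz, which encodes the co-activator IkappaB-zeta, rose from 3.95, 3.88, 3.36, 2.95 and 3.52 CPM to 772, 869, 459 and 422 CPM in 6 hr replicates 1 to 4, with 5.26 CPM in replicate 5. The groups did not overlap, at 7.38 ± 0.93 (7.85 ± 0.60). The inhibitor Nfkbia rose by 3.74 (4.16), the co-activator Bcl3 by 4.42 (4.87) and the ubiquitin ligase Birc3 by 3.50 (3.93). Nfkb1, which encodes the p50 subunit, changed by 0.41 (0.57) and passed the test without replicate 5 only (adjusted p = 0.113 and 0.0207). That call was lost with 6 hr replicate 2 left out as well, or with only 0 and 6 hr libraries in the fit. It was kept with any 1 of the other 0 and 6 hr libraries left out as well. Map3k14, the kinase of the non-canonical branch, fell by a log2 change of -0.99 (-1.28).

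Of immediate early and stress transcription factors 22 of 24 tested rose and 1 fell (22 and 1), with a median log2 change of 1.89 (2.32), and the lower count was 0 with any 1 of 0 hr replicates 3 and 4 or 6 hr replicates 1, 2, 3 and 4 left out. Cebpb and Cebpd, which switch on acute-phase genes, rose by 6.18 (6.66) and 4.98 (5.41), Atf3 by 3.76 (4.18), the AP-1 subunit Fosl2 by 3.81 (4.25), Myc by 5.32 (5.76), Fos by 1.94 (2.38) and Jun by 1.004 (0.99). The negative regulators of MAP kinases and of cytokine mRNA were 14 higher and 4 lower of 23 (15 and 5), median 0.77 (0.94), and the lower count was 2 with 0 hr replicate 4 left out. Zfp36 and Zc3h12a, whose products take cytokine mRNAs apart, rose by 2.49 (2.84) and 3.51 (3.95), the related Zfp36l2 fell by a log2 change of -1.64 (-2.60), and the MAP kinase phosphatase gene Dusp1 changed by 0.30 (0.32) without passing the test. Of JAK-STAT and SOCS genes 16 of 25 tested rose and 2 fell (16 and 3), with a median log2 change of 1.08 (1.33). Socs1, an inhibitor of interferon receptors, was at 1.69, 2.82, 1.76, 1.98 and 3.52 CPM at 0 hr, 520.4, 305, 278 and 99.5 CPM in 6 hr replicates 1 to 4 and 4.00 CPM in replicate 5, and all 5 were above 0 hr, at 6.55 ± 0.90 (7.05 ± 0.66). Socs3, which acts on the receptors of the IL-6 family, rose by 4.07 (4.49) and the factor Stat3 by 1.85 (2.20).

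Chemokine genes rose in both families. Of CXC chemokines 12 of 14 tested rose and 1 fell (12 and 1), with a median log2 change of 4.46 (4.94), and of CC chemokines 10 of 15 tested rose and 1 fell (11 and 1), with a median log2 change of 3.71 (4.05). Cxcl1, which attracts neutrophils, lay at 5.45, 3.79, 4.89, 6.85 and 4.17 CPM at 0 hr and at 2405, 4473, 2955 and 1249 CPM in 6 hr replicates 1 to 4, with 4.42 CPM in replicate 5. Each of the 4 was far above any 0 hr library while replicate 5 lay within the 0 hr range, and the log2 change was 8.87 ± 1.08 (9.32 ± 0.63) (adjusted p = 1.06e-05 and 4.78e-11). Cxcl10, an interferon-inducible ligand of CXCR3 on T cells, had 13.6, 13.7, 7.07, 18.6 and 20.4 CPM at 0 hr, 5774, 7118, 4634 and 1789 CPM in 6 hr replicates 1 to 4 and 32.6 CPM in replicate 5. All 5 libraries were above 0 hr, at 7.88 ± 0.95 (8.37 ± 0.65). Cxcl2, at most 0.617 CPM at 0 hr, was at 1101, 1058, 450.3 and 352 CPM in 6 hr replicates 1 to 4, and Cxcl3, whose promoter is printed above and which is named for it, had no count in any 0 hr library nor in replicate 5 and 7.83, 18.0, 19.7 and 15.3 CPM in the other 4. Cxcl3 could pass the low-count filter only through libraries after LPS, so a rise was the only call open to it. The count and median of CXC chemokines include it. Cxcl9 rose by 5.09 (5.58) and the membrane-bound Cxcl16 by 2.99 (3.43), and Ccl2 and Ccl7, which attract monocytes, by 9.04 (9.52) and 8.46 (8.95). Cxcl12, which holds leukocytes and progenitors in tissue, went the other way, from 1736, 2252, 1817, 2247 and 1965 CPM to 102, 113, 95.1 and 159 CPM in 6 hr replicates 1 to 4. Replicate 5, at 2121 CPM, was at the 0 hr level, and the log2 change was -2.29 ± 0.68 (-4.21 ± 0.43) (adjusted p = 0.00988 and 1.95e-08). The 1 call of a lower CC chemokine with all 10 libraries was 0 with any 1 of 0 hr replicates 1 and 2 or 6 hr replicates 1, 2, 3 and 4 left out.

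Cytokines and colony-stimulating factors also rose, as did most of their receptors. Of the ligands 16 of 23 tested rose and 1 fell (16 and 2), with a median log2 change of 3.29 (3.78). Csf3, which encodes G-CSF, the growth factor of neutrophils, lay at 0, 0.176, 0.0382, 0.174 and 0.0719 CPM at 0 hr, at 1732, 2167, 2199 and 756 CPM in 6 hr replicates 1 to 4 and at 0 in replicate 5, with adjusted p = 5.42e-05 and 6.15e-08. Il6 had 0, 0.176, 0.115, 0.243 and 0.180 CPM at 0 hr, 477, 495, 286 and 140.0 CPM in 6 hr replicates 1 to 4 and 0 in replicate 5, with adjusted p = 2.02e-05 and 1.03e-09. Both genes were thus near 0 counts at 0 hr and in replicate 5, so that no fold is given. Such genes could pass the low-count filter only through libraries after LPS, so a rise was the only call open to them. The count and median of the ligands include such genes. Csf1, the growth factor of macrophages, was at 80.4, 93.5, 75.7, 99.7 and 78.8 CPM at 0 hr, 2044, 1889, 1855 and 882 CPM in 6 hr replicates 1 to 4 and 122 CPM in replicate 5, and rose by 3.99 ± 0.51 (4.42 ± 0.33) with no overlap. Of cytokine receptors 20 of 30 tested rose and 4 fell (22 and 4), with a median log2 change of 1.31 (1.59). Il4ra and Il6ra rose by 3.12 (3.54) and 3.42 (3.84), and Cxcr4, the receptor of CXCL12, fell by a log2 change of -1.97 (-2.84) in all 5 libraries. With all 10 libraries the 4 lower receptor calls became 1 to 2 with any 1 of 0 hr replicates 3, 4 and 5 or 6 hr replicates 1, 2, 3 and 4 left out, and the 1 lower call among ligands became 0 with any 1 of 0 hr replicate 4 or 6 hr replicates 1, 2, 3 and 4 left out.

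Many leukocyte adhesion molecules rose, and some fell. Over the list 11 of 23 tested rose and 8 fell (11 and 8), with a median log2 change of 0.57 (0.45), and the lower count was 4 to 5 with any 1 of 6 hr replicates 1, 2 and 3 left out. Without replicate 5 the lower count was near the share of all genes, 30.5%, so it is no result about the list. Selp (P-selectin, ENSMUSG00000026580.16, mm10 chr1:164115264-164150026), which starts leukocyte rolling, lay at 3.19, 3.52, 4.47, 3.93 and 4.64 CPM at 0 hr and 607, 987, 504 and 475 CPM in 6 hr replicates 1 to 4, with 7.16 CPM in replicate 5. All 5 libraries at 6 hr exceeded all at 0 hr, at 7.34 ± 1.02 (7.77 ± 0.72) (adjusted p = 2.27e-05 and 4.83e-09). Icam1, a ligand of leukocyte integrins, had 131, 96.9, 112, 138 and 98.9 CPM at 0 hr, 2364, 3757, 2762 and 1864 CPM in 6 hr replicates 1 to 4 and 135 CPM in replicate 5. Replicate 5 lay within the 0 hr range, and the log2 change was 4.37 ± 0.61 (4.80 ± 0.39). Vcam1 rose from 150.5, 146, 192, 182 and 163 CPM to 3639, 2770.0, 2355 and 1402 CPM, and in replicate 5 to 344 CPM, so that the groups did not overlap, at 3.59 ± 0.42 (3.98 ± 0.30). E-selectin (Sele) rose by 5.78 (6.22) and the junctional adhesion molecule F11r by 1.85 (2.20), while Icam2 and Pecam1, which resting endothelium carries at its junctions, fell by a log2 change of -0.95 (-1.17) and -1.03 (-1.46).

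Interferon-stimulated genes rose almost throughout: 52 of 55 tested rose and 0 fell (53 and 0), with a median log2 change of 2.65 (2.94). Isg15, a ubiquitin-like protein, had 64.3, 71.1, 51.8, 58.3 and 71.9 CPM at 0 hr, 2314, 1446, 1627 and 884 CPM in 6 hr replicates 1 to 4 and 129.5 CPM in replicate 5. All 5 lay above 0 hr, replicate 5 the least, at 4.21 ± 0.47 (4.66 ± 0.30) (adjusted p = 8.97e-06 and 2.11e-11). Ifit1, which binds foreign RNA, had 90.7, 109.8, 97.7, 124 and 141 CPM at 0 hr, 3029, 1456, 3361 and 898 CPM in 6 hr replicates 1 to 4 and 318 CPM in replicate 5, again with no overlap, at 3.81 ± 0.43 (4.18 ± 0.35). The antiviral enzyme gene Rsad2 rose by 3.58 (3.99), the DNA and RNA sensor genes Zbp1 and Ifi204 by 5.49 (6.00) and 4.41 (4.88), the factor Irf8 by 4.06 (4.52) and Oas3, which makes oligoadenylates that activate RNase L, by 4.91 (5.43). Of guanylate-binding proteins and immunity-related GTPases, which attack the vacuoles of intracellular pathogens, 16 of 18 tested rose and 0 fell (15 and 0), with a median log2 change of 3.08 (3.49), Gbp2 and Gbp5 by 3.45 (3.89) and 3.67 (4.09). Members of the Ifi20x and Gbp families are near copies, and reads that fit several were left uncounted, so their values are uncertain.

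In antigen presentation, class I rose and class II was mostly without a call. Of MHC class I genes 21 of 25 tested rose and 0 fell (22 and 0), with a median log2 change of 1.78 (2.13). The heavy chain gene H2-K1 lay at 3002, 1921, 2481, 1462 and 1452 CPM at 0 hr, 8588, 8797, 13096 and 8161 CPM in 6 hr replicates 1 to 4 and 1339 CPM in replicate 5. The 4 were above and replicate 5 below all 0 hr libraries, and the log2 change was 1.86 ± 0.39 (2.28 ± 0.27). The peptide transporter gene Tap1 rose by 3.88 (4.34), the immunoproteasome subunit gene Psmb10 by 3.01 (3.45) and the class I transactivator gene Nlrc5 by 3.88 (4.34), whereas B2m, the light chain, changed by -0.07 ± 0.25 (-0.01 ± 0.26) (adjusted p = 0.843 and 0.969). Class II genes were 4 higher and 0 lower of 13 (4 and 1), median 0.45 (0.69). Proteasome and ubiquitin genes were 27 higher and 0 lower of 38 (33 and 0), median 0.88 (1.17).

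Acute-phase and scavenger protein genes, many of them targets of C/EBP and STAT3, were 22 higher and 0 lower of 24 (22 and 1), median 4.71 (5.25). Saa3, a serum amyloid A made outside the liver, was at 0.188, 0.176, 0.382, 0.174 and 0.395 CPM at 0 hr, 840.1, 955, 1299.5 and 914 CPM in 6 hr replicates 1 to 4 and 1.05 CPM in replicate 5. All 5 were above 0 hr (adjusted p = 1.57e-05 and 4.59e-09), replicate 5 by little. At such levels at 0 hr Saa3 could pass the low-count filter only through libraries after LPS, so a rise was the only call open to it. The count and median of the list include it. Ptx3, a long pentraxin, rose by 7.06 (7.54) and the serpin Serpina3g by 6.83 (7.31), which has near copies in its cluster. Metallothioneins and zinc handling genes were 6 higher and 1 lower of 13 (8 and 1), median 0.91 (1.17), with Mt1 at 6.98 (7.42) beside Mt2 and the zinc importer Slc39a14 at 3.67 (4.10). Complement genes were 8 higher and 1 lower of 27 (8 and 5), median -0.12 (-0.25), with C1ra at 4.12 (4.55) and C3 at 1.63 (2.01), and their lower count was 2 with any 1 of 0 hr replicate 4 or 6 hr replicate 3 left out.

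**Figure D3:**
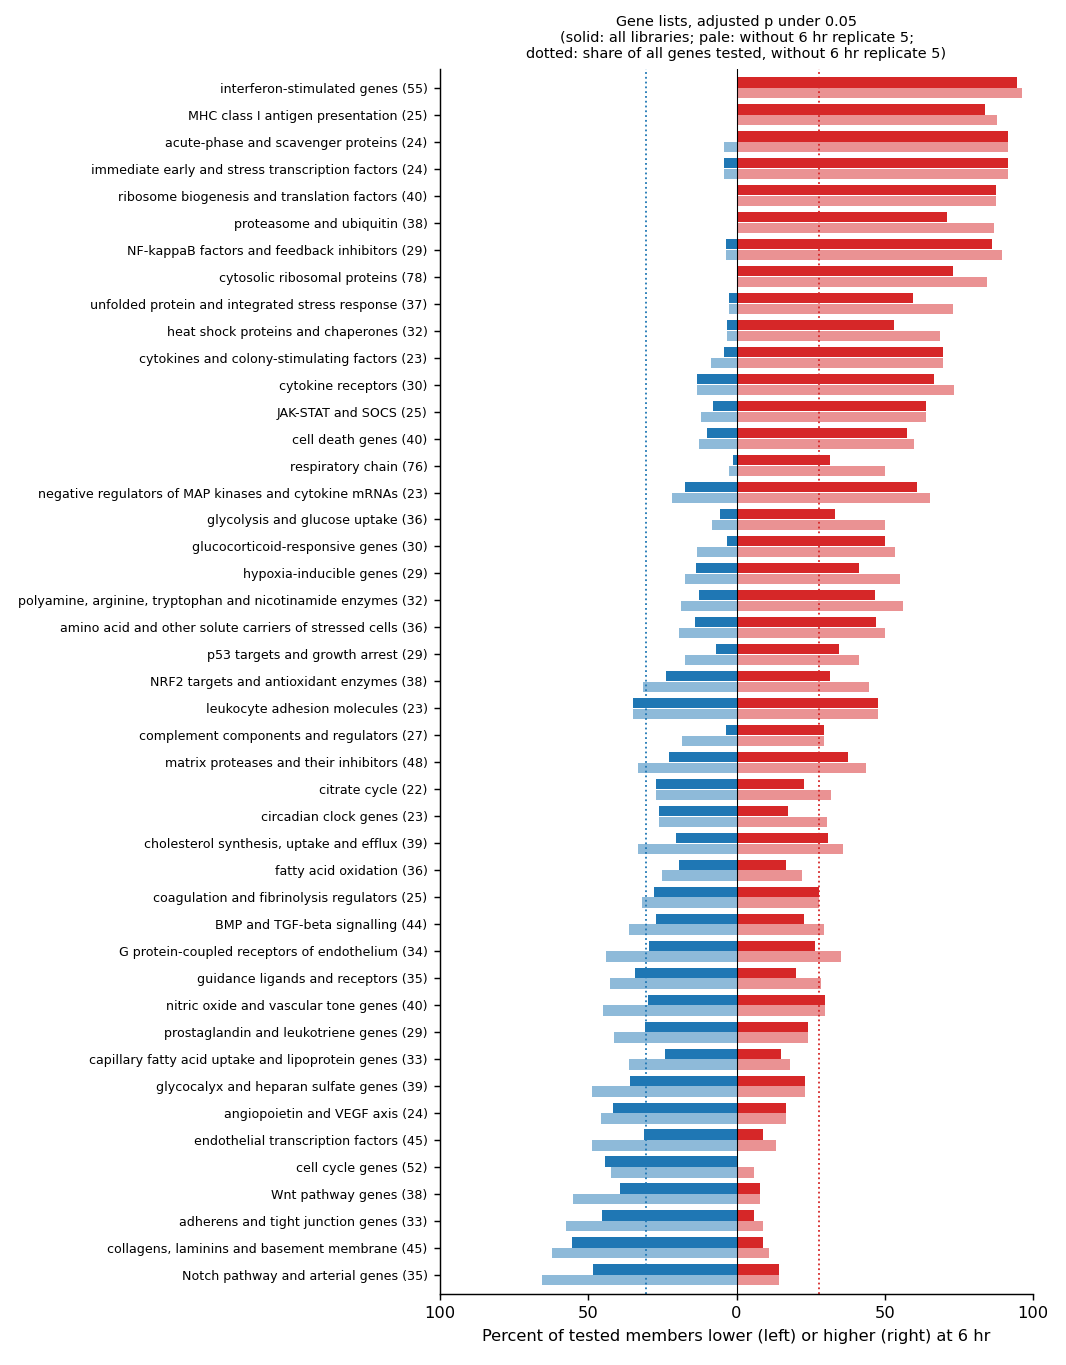
Percent of the tested members of gene lists other than cell type markers with at least 20 members tested (number in brackets) that were lower (left) or higher (right) at 6 hr with adjusted p under 0.05, solid for all 10 libraries and pale without the library labelled 6 hr replicate 5, with dotted lines at the shares of all genes tested without it, 30.5% lower and 27.8% higher. Lists are ordered by the higher minus the lower share without that library, with interferon-stimulated genes at the top and Notch, matrix, junction and Wnt genes at the bottom.

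Genes of protein synthesis rose, with those of folding and of the stress response. Cytosolic ribosomal protein genes were 57 higher and 0 lower of 78 (66 and 0), median 1.32 (1.70). Rps18 had 23.2, 30.6, 20.5, 19.1 and 27.6 CPM at 0 hr, 370.1, 184, 504 and 112 CPM in 6 hr replicates 1 to 4 and 16.7 CPM in replicate 5, the 4 above and replicate 5 below all of 0 hr, at 3.18 ± 0.58 (3.65 ± 0.44). These genes have many processed copies in the genome, and since reads aligned to several places were not counted and their share moved with the groups, as given above, the values are uncertain. Ribosome biogenesis and translation factor genes were 35 higher and 0 lower of 40 (35 and 0), median 1.54 (1.91), with the nucleolar genes Npm1 at 2.23 (2.64), Ncl at 1.82 (2.18) and Gnl3 at 2.66 (3.10). Unfolded protein and integrated stress response genes were 22 higher and 1 lower of 37 (27 and 1), median 0.87 (1.10), with the factor Atf4 at 3.28 (3.72), the chaperone Hspa5 at 2.19 (2.61), the asparagine synthetase Asns at 2.50 (2.94), the folate enzyme Mthfd2 at 3.82 (4.34) and Ddit3, which encodes CHOP, at 0.88 (1.11). Heat shock proteins were 17 higher and 1 lower of 32 (22 and 1), median 0.88 (1.16), with Hspa1a, which has a near copy, at 2.78 (3.19). The single lower call of the stress response list was 0 with any 1 of 0 hr replicates 1, 3, 4 and 5 or 6 hr replicates 1 and 3 left out, and that of the heat shock list 0 with any 1 of 0 hr replicates 1, 2 and 3 or 6 hr replicates 1, 2 and 3 left out.

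Genes that mark endothelium as such were lower. Of 30 pan-endothelial markers 3 of 30 tested rose and 18 fell (3 and 23), with a median log2 change of -0.88 (-1.18). Of genes at adherens and tight junctions 2 of 33 tested rose and 15 fell (3 and 19), with a median log2 change of -0.69 (-0.88). Cdh5, which encodes VE-cadherin and drives the Cre used here, lay at 1547, 1360.0, 1767, 1921 and 1712 CPM at 0 hr, 695, 1275, 408 and 969 CPM in 6 hr replicates 1 to 4 and 1663 CPM in replicate 5. The 4 lay below every 0 hr library and replicate 5 lay within the 0 hr range, and the log2 change was -0.73 ± 0.27 (-1.01 ± 0.26) (adjusted p = 0.0320 and 0.00197), a call that was lost with any 1 of 0 hr replicates 3, 4 and 5 or 6 hr replicates 1, 3 and 4 left out. The catenin-family gene Jup fell by a log2 change of -1.87 (-2.89), the junction scaffold Tjp1 by -1.10 (-1.81) and Ctnnb1, which encodes beta-catenin, by -0.78 (-1.08). Cldn5, the main claudin of tight endothelium, changed by 0.06 ± 0.29 (0.13 ± 0.31) (adjusted p = 0.883 and 0.742).

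**Figure D4:**
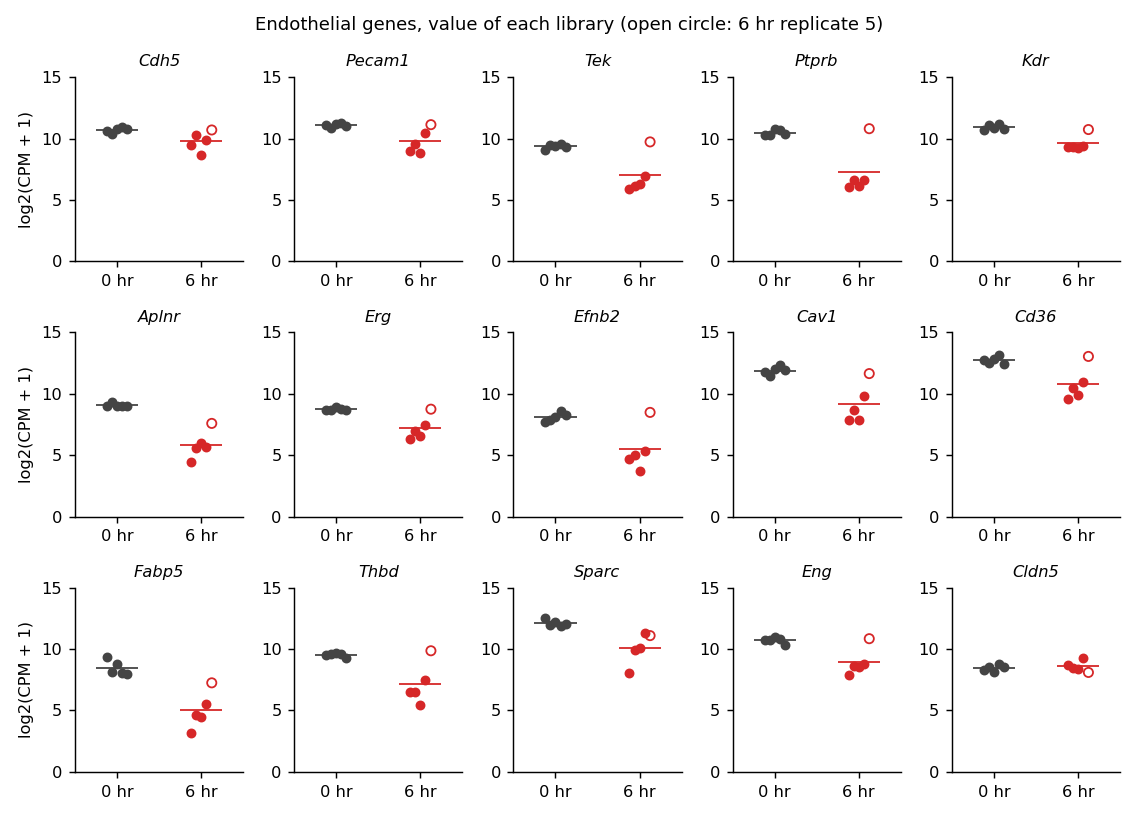
Levels of 15 endothelial and capillary genes, as log2(CPM + 1), with 1 point per library at 0 and 6 hr, a line at the mean of each time and an open circle for the library labelled 6 hr replicate 5. In 6 hr replicates 1 to 4 every gene shown but Cldn5 lies below every 0 hr library, while replicate 5 lies among the 0 hr libraries at most of them.

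Genes of the angiopoietin and VEGF axis were 4 higher and 10 lower of 24 (4 and 11), median -0.41 (-0.59). Tek, which encodes the angiopoietin receptor TIE2, was at 551, 696, 655, 769 and 649 CPM at 0 hr, 58.1, 71.3, 76.5 and 123 CPM in 6 hr replicates 1 to 4 and 847 CPM in replicate 5. The 4 were below and replicate 5 above every 0 hr library, and the log2 change was -1.71 ± 0.49 (-3.11 ± 0.26) (adjusted p = 0.00862 and 9.91e-10). Ptprb, the phosphatase that acts on TIE2 and VE-cadherin, had 1251, 1244, 1759, 1617 and 1337 CPM at 0 hr, 65.2, 99.3, 69.4 and 99.4 CPM in 6 hr replicates 1 to 4 and 1787 CPM in replicate 5, at -2.27 ± 0.63 (-4.18 ± 0.25). Kdr, the main VEGF receptor, fell by a log2 change of -1.18 (-1.66) and its co-receptor Nrp1 by -2.01 (-3.13). Pgf, which encodes placental growth factor, a ligand of the decoy-like receptor FLT1, went from 67.1, 28.7, 36.4, 19.3 and 24.5 CPM to 2826, 2951, 3543 and 1615 CPM in 6 hr replicates 1 to 4 and 16.4 CPM in replicate 5. Replicate 5 was below all of 0 hr, the other 4 were above, and the change was 6.33 ± 0.94 (6.82 ± 0.60). Angpt2, the TIE2 ligand of activated endothelium, rose by 1.23 (1.61), a call lost without 0 hr replicate 4, and Vegfa changed by -0.35 (-0.34) without passing the test.

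Notch and Wnt pathway genes were called lower more often than higher. Of Notch and arterial genes 5 of 35 tested rose and 17 fell (5 and 23), with a median log2 change of -0.88 (-1.29). Hey1, a Notch target in arterial endothelium, had 167, 163, 175, 140.0 and 154 CPM at 0 hr, 3.28, 4.13, 1.58 and 10.3 CPM in 6 hr replicates 1 to 4 and 192 CPM in replicate 5. Replicate 5 lay above all of 0 hr and the 4 far below, and the change of -2.32 ± 0.90 (-5.30 ± 0.59) (adjusted p = 0.0410 and 6.26e-08) lost its call with any 1 of 0 hr replicates 1, 3, 4 and 5 or 6 hr replicates 1, 2, 3 and 4 left out. The arterial ligand Efnb2 fell by a log2 change of -1.85 (-3.51), the Notch ligand Jag1 rose by 0.90 (1.07), and Notch1 changed by -0.28 (-0.63) and passed the test without replicate 5 only (adjusted p = 0.260 and 0.00223). With all 10 libraries the lower count was 10 to 11 with any 1 of 0 hr replicates 3, 4 and 5 or 6 hr replicates 1, 2 and 3 left out and the higher count 3 with any 1 of 0 hr replicate 4 or 6 hr replicate 3 left out. Of Wnt genes 3 of 38 tested rose and 15 fell (3 and 21), with a median log2 change of -0.78 (-1.02), with the co-receptor Lrp5 at -1.96 (-3.33) and Tspan12, which supports the Norrin receptor, at -2.29 (-3.80). Their lower count was 9 with any 1 of 0 hr replicate 4 or 6 hr replicates 3 and 4 left out.

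Of endothelial transcription factors 4 of 45 tested rose and 14 fell (6 and 22), with a median log2 change of -0.39 (-0.68), and the lower count was 8 to 9 with any 1 of 0 hr replicates 3, 4 and 5 or 6 hr replicates 1, 2, 3 and 4 left out. Erg, which maintains endothelial genes, fell by a log2 change of -1.27 (-1.95) and Meox2, a factor of the fatty acid transport of heart capillaries, by -2.03 (-3.56). Klf2, a flow-induced factor that restrains inflammation, had 558, 433, 943, 585 and 459 CPM at 0 hr and 1341, 1144, 1121 and 1443 CPM in 6 hr replicates 1 to 4, with 1021 CPM in replicate 5. All 5 libraries lay above 0 hr, at 0.98 ± 0.27 (0.99 ± 0.29) (adjusted p = 0.00692 and 0.00555), whereas the related Klf4 changed by -1.08 ± 0.54 (-2.26 ± 0.44) (adjusted p = 0.105 and 1.06e-04) and missed the threshold with all 10 libraries. With replicate 5 kept, Klf4 passed in some alternatives, limma-voom and ComBat before limma among them. BMP and TGF-beta genes were 10 higher and 12 lower of 44 (13 and 16), median -0.02 (-0.09), and the lower count was 7 with 6 hr replicate 3 left out. The co-receptor Eng fell by a log2 change of -1.53 (-2.16), and the ligands Bmp4 and Inhbb rose by 2.53 (2.91) and 4.54 (4.97).

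Regulators of clotting were 7 higher and 7 lower of 25 (7 and 8), median -0.14 (-0.21), shares near those of all genes (22.4% higher and 20.3% lower). Thbd, which encodes the anticoagulant receptor thrombomodulin, was at 714, 789, 809, 781 and 615 CPM at 0 hr, 88.9, 92.2, 41.4 and 175 CPM in 6 hr replicates 1 to 4 and 927 CPM in replicate 5. The 4 were below and replicate 5 above every 0 hr library, at -1.68 ± 0.53 (-2.96 ± 0.39) (adjusted p = 0.0142 and 6.27e-07). The urokinase receptor gene Plaur rose by 3.95 (4.40) and F3, which encodes tissue factor, by 1.73 (2.08). Vwf, which encodes von Willebrand factor, fell by a log2 change of -1.03 (-1.67), a call lost with any 1 of 0 hr replicates 3, 4 and 5 or 6 hr replicates 1, 2, 3 and 4 left out.

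Nitric oxide and vascular tone genes were 12 higher and 12 lower of 40 (12 and 18), median -0.21 (-0.20), and the lower count was 4 to 6 with any 1 of 0 hr replicates 3, 4 and 5 or 6 hr replicates 1, 2 and 3 left out. Nos3, the endothelial nitric oxide synthase, had 247, 287, 277, 289 and 239.9 CPM at 0 hr, 93.0, 103, 80.4 and 225 CPM in 6 hr replicates 1 to 4 and 304 CPM in replicate 5. The 4 lay below and replicate 5 above all 0 hr libraries, and the change of -0.73 ± 0.30 (-1.08 ± 0.30) missed the threshold with all 10 libraries and passed without replicate 5 (adjusted p = 0.0552 and 0.00393), as it did without 6 hr replicate 4. Gch1, which makes the cofactor of the synthases, rose by 2.43 (2.80), the arginine carrier Slc7a2 by 4.38 (4.79) and the inducible synthase Nos2 by 1.50 (1.84), and endothelin 1 (Edn1) changed by -0.09 (-0.19) without passing the test. Prostaglandin and leukotriene genes were 7 higher and 9 lower of 29 (7 and 12), median -0.45 (-0.38). The inducible cyclooxygenase Ptgs2 rose by 3.66 (4.05), the constitutive Ptgs1 fell by a log2 change of -2.21 (-4.05), and the thromboxane receptor Tbxa2r fell by a log2 change of -2.53 (-4.48). Sphk1, which makes sphingosine 1-phosphate, rose by 5.96 (6.47) and its receptor S1pr1 by 0.74 (0.79).

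Matrix genes fell while some matrix enzymes and their inhibitors rose. Collagens, laminins and other basement membrane genes were 4 higher and 25 lower of 45 (5 and 28), median -0.83 (-1.20). Sparc, a collagen-binding protein, had 5849, 4086, 4792, 3819.6 and 4160.2 CPM at 0 hr, 259, 946, 1089 and 2519.6 CPM in 6 hr replicates 1 to 4 and 2183 CPM in replicate 5, all 5 below 0 hr, at -1.67 ± 0.38 (-1.87 ± 0.41) (adjusted p = 0.00187 and 4.42e-04). Its relative Sparcl1 fell by a log2 change of -2.05 (-3.23) and elastin (Eln) by -2.14 (-3.32), while Col4a1, the basement membrane collagen, changed by -0.29 (-0.08) without passing the test. Matrix proteases and inhibitors were 18 higher and 11 lower of 48 (21 and 16), median 0.31 (0.51), and their lower count was 7 with any 1 of 6 hr replicates 1 and 2 left out. Timp1, an inhibitor of metalloproteinases, rose by 5.87 (6.33), the aggrecanase Adamts4 by 5.91 (6.37) and the membrane-bound Mmp14 by 2.81 (3.21). Glycocalyx and heparan sulfate genes were 9 higher and 14 lower of 39 (9 and 19), median -0.36 (-0.51), with the syndecan Sdc4 at 4.89 (5.32), and the lower count was 5 to 8 with any 1 of 0 hr replicates 3, 4 and 5 or 6 hr replicates 1, 2 and 3 left out.

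Capillary genes of fatty acid uptake, for which heart endothelium is known, were 5 higher and 8 lower of 33 (6 and 12), median -0.11 (-0.03). Cd36, the fatty acid translocase, lay at 6855, 5699, 7105, 9043 and 5551 CPM at 0 hr, 769, 1384, 945 and 1997 CPM in 6 hr replicates 1 to 4 and 8434 CPM in replicate 5. The 4 were below every 0 hr library and replicate 5 was within their range, at -1.50 ± 0.44 (-2.43 ± 0.33) (adjusted p = 0.00932 and 1.14e-06). Gpihbp1, which holds lipoprotein lipase on the capillary wall, had 1522, 1583, 1621, 1283 and 1308 CPM at 0 hr, 165, 188, 339 and 358 CPM in 6 hr replicates 1 to 4 and 1439 CPM in replicate 5, at -1.65 ± 0.38 (-2.45 ± 0.29). Angptl4, an inhibitor of that lipase, rose by 2.62 (3.07), and replicate 5 was at 14.7 CPM against 64.6, 44.5, 40.6, 124 and 35.5 CPM at 0 hr. Aqp7, a channel for glycerol, had 432, 454, 590.3, 508 and 359 CPM at 0 hr, 3.77, 3.07, 2.88 and 19.6 CPM in 6 hr replicates 1 to 4 and 379 CPM in replicate 5. Its change of -2.67 ± 1.27 (-6.56 ± 1.14) missed the threshold with all 10 libraries and passed without replicate 5 (adjusted p = 0.0910 and 2.99e-05). With replicate 5 kept, Aqp7 passed in some alternatives, DESeq2, limma-voom and ComBat before limma among them.

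Caveolae, the flask-shaped pits of capillary endothelium, and fenestral diaphragms had 3 higher and 6 lower of 13 (5 and 6), median -0.15 (-0.21). Cav1, their main coat protein, was at 3412, 2812, 4044, 5094 and 4005 CPM at 0 hr, 228, 417, 236 and 907 CPM in 6 hr replicates 1 to 4 and 3203 CPM in replicate 5. The 4 were below every 0 hr library and replicate 5 was within their range, at -2.04 ± 0.54 (-3.31 ± 0.40) (adjusted p = 0.00503 and 1.95e-07). Cavin2, a coat adaptor, had 2392, 2331, 2255, 2521 and 1676 CPM at 0 hr, 14.6, 19.9, 22.4 and 72.3 CPM in 6 hr replicates 1 to 4 and 2442 CPM in replicate 5. Its change of -2.73 ± 0.97 (-6.33 ± 0.47) lost the all-library call with any 1 of 6 hr replicates 1, 2, 3 and 4 left out. Plvap, the diaphragm protein, fell by a log2 change of -1.50 (-2.07).

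In energy metabolism, glycolysis genes were 12 higher and 2 lower of 36 (18 and 3), median 0.47 (0.67), and their lower count was 1 with any 1 of 0 hr replicate 4 or 6 hr replicate 1 left out. Pfkfb3, which makes the activator of phosphofructokinase, had 72.1, 67.9, 84.4, 71.3 and 66.2 CPM at 0 hr, 2906, 2542, 2529.9 and 1241 CPM in 6 hr replicates 1 to 4 and 116 CPM in replicate 5, all 5 above 0 hr, at 4.75 ± 0.63 (5.19 ± 0.44). The glucose transporter Slc2a1 rose by 1.74 (2.07), and Pdk4, which closes pyruvate dehydrogenase, by 3.65 (4.08). Respiratory chain genes were 24 higher and 1 lower of 76 (38 and 2), median 0.44 (0.63), a higher count that was 10 to 13 with any 1 of 0 hr replicates 3 and 4 or 6 hr replicates 1 and 3 left out and 25 with 6 hr replicates 3 and 5 both left out. Fatty acid oxidation genes were 6 higher and 7 lower of 36 (8 and 9), median -0.12 (-0.13), with Cpt1a, the gate of mitochondrial import, at -1.31 (-1.86), and the higher count was 2 to 3 with any 1 of 0 hr replicate 4 or 6 hr replicates 1 and 3 left out. Enzymes of polyamine, arginine, tryptophan and nicotinamide metabolism were 15 higher and 4 lower of 32 (18 and 6), median 0.61 (0.75). Acod1, which makes itaconate, was at 1.78, 0.617, 0.535, 0.730 and 0.898 CPM at 0 hr, 412, 360.4, 372 and 225 CPM in 6 hr replicates 1 to 4 and 1.12 CPM in replicate 5, within the 0 hr range in replicate 5 and above it in the other 4, at 8.37 ± 1.05 (8.87 ± 0.66). Ido1, which breaks down tryptophan, rose by 4.22 (4.73), Nampt, which makes a precursor of NAD, by 2.04 (2.35), and Ch25h, the cholesterol 25-hydroxylase, by 5.57 (6.04).

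Cell cycle genes had 0 higher and 23 lower of 52 (3 and 22), median -0.92 (-0.81), and the count of 22 lower without replicate 5 was 13 with 6 hr replicate 1 and 14 with 0 hr replicate 4 left out as well. Mcm5, a subunit of the replicative helicase, had 62.8, 45.1, 31.0, 46.5 and 53.4 CPM at 0 hr, 6.13, 11.0, 13.8 and 14.6 CPM in 6 hr replicates 1 to 4 and 20.5 CPM in replicate 5. All 5 were below 0 hr, at -1.78 ± 0.26 (-1.89 ± 0.29) (adjusted p = 3.31e-05 and 5.35e-06). Mki67, a marker of cycling cells, had 94.8, 60.7, 32.5, 85.5 and 82.8 CPM at 0 hr, 21.6, 60.1, 52.6 and 99.0 CPM in 6 hr replicates 1 to 4 and 14.1 CPM in replicate 5. The groups overlapped, replicate 5 was the lowest, and the change of -0.94 ± 0.57 (-0.66 ± 0.61) did not pass (adjusted p = 0.188 and 0.362), nor did Cdk1 at -0.78 (-0.45) and Top2a at -0.76 (-0.48). Genes of cell death were 23 higher and 4 lower of 40 (24 and 5), median 0.82 (1.05), with the inflammatory caspase Casp4 at 3.42 (3.87), the pore former Mlkl at 2.93 (3.36) and Bid at 4.50 (4.98). The growth arrest gene Cdkn1a rose by 3.05 (3.50). Circadian clock genes were 4 higher and 6 lower of 23 (7 and 6), median -0.01 (-0.12), shares near those of all genes. The output factors Dbp and Hlf were at -2.08 (-3.18) and -1.86 (-3.44) and Nr1d1 at -1.05 (-1.28). Per1 at 0.92 (1.12) missed the threshold with all 10 libraries and passed without replicate 5 (adjusted p = 0.0669 and 0.0250). With replicate 5 kept, Per1 passed without 0 hr replicate 3 and in some alternatives, DESeq2 and limma-voom among them.

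Markers of other cell types moved with time too, and their part in the results above was not tested. Before TMM scaling, as for all sums here, the summed level of the neutrophil list was 17.2 to 23.2 CPM at 0 hr. It was 2556 to 5725 CPM in 6 hr replicates 1 to 4 and 58.3 CPM in replicate 5, most of it Lcn2. Of 30 listed members 20 were tested, 17 higher and 0 lower (18 and 0), median 5.34 (5.82). No count was found for 11 of the 30 in any 0 hr library and for 1 in any 6 hr library. Members without counts at 0 hr could pass the low-count filter only through libraries after LPS, so these calls are no result about the list. S100a8 and S100a9, the most abundant proteins of neutrophils, were at 10.6, 11.9, 16.0 and 20.2 CPM and 29.2, 24.4, 38.1 and 35.8 CPM in 6 hr replicates 1 to 4 and under 1 CPM at 0 hr. Elane and Ly6g were at or near 0 in all 10 libraries. Before TMM scaling, Camp, Mpo and Ngp lay at 0.251 to 0.621, 0.125 to 0.629 and 0.553 to 1.863 CPM in 6 hr replicates 1 to 4. They were at most 0.075 CPM at 0 hr and at 0 in replicate 5. The platelet list had 29.1 to 38.5 CPM at 0 hr and 785 to 1222 CPM in 6 hr replicates 1 to 4, mostly Selp and Itgb3, which endothelium also expresses, with 41.2 CPM in replicate 5. Of 16 listed members 7 were tested, 3 higher and 0 lower (4 and 2), median 0.68 (0.99). Pf4, a platelet chemokine, rose by 3.83 (4.31) and Itgb3 by 4.78 (5.21). Ppbp, another platelet chemokine, was too low to be tested. Before TMM scaling it lay at 0 to 0.293 CPM at 0 hr and 0 to 0.251 CPM at 6 hr.

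Before TMM scaling, as for the other sums here, sarcomere and cardiomyocyte markers summed to 11018 to 20268 CPM at 0 hr and 11616 to 22651 CPM at 6 hr. The ranges overlapped, with 13 higher and 0 lower of 47 markers (18 and 0), median 0.56 (0.76). Their higher count was 2 to 4 with any 1 of 0 hr replicates 3 and 4 or 6 hr replicates 1 and 3 left out. Myh6, the cardiac myosin, changed by 0.01 ± 0.25 (-0.02 ± 0.27) and Ttn, titin, by 0.21 ± 0.34 (0.37 ± 0.37), neither past the test, while Ankrd1, a stress-induced muscle gene, rose by 2.10 (2.53). Fibroblast markers summed to 3245 to 4006 CPM at 0 hr, 613 to 1621 CPM in 6 hr replicates 1 to 4 and 2562 CPM in replicate 5, and they overlap with the matrix list above, with 1 higher and 10 lower of 23 (2 and 13), median -0.88 (-1.004). Pdgfra, a defining fibroblast receptor, changed by -0.35 (-0.78) (adjusted p = 0.377 and 0.0295) and was at most 20.3 CPM at 0 hr. Macrophage and monocyte markers summed to 91.8 to 155.4 CPM at 0 hr, 130.4 to 217.3 CPM in 6 hr replicates 1 to 4 and 89.8 CPM in replicate 5. They were 10 higher and 1 lower of 31 (10 and 4), median -0.12 (0.07). Csf1r, at -1.26 (-1.85), was the 1 lower call and went against the 10 higher ones. That call was lost with any 1 of 0 hr replicate 5 or 6 hr replicates 1, 2, 3 and 4 left out. Endocardial and large-vessel markers were 5 higher and 12 lower of 27 (5 and 19), median -1.23 (-1.89), and the lower count was 5 to 6 with any 1 of 0 hr replicates 3, 4 and 5 or 6 hr replicates 1, 2 and 3 left out. Pericyte and smooth muscle markers were 2 higher and 5 lower of 20 (2 and 10), median -0.67 (-0.86), and their lower count was 0 to 3 with any 1 of 0 hr replicate 5 or 6 hr replicates 1, 2 and 3 left out.

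Levels at the other times, as log2 CPM without the library series term, place the 6 hr values in a course. The series were uneven over time. The 6 hr libraries were of series 1 and 2, those at 24 hr of 1, 2 and 4 and those at 168 hr of 1 and 4. At 48 hr Lcn2 lay at 9.40 and 9.91 in series 2, 11.69 and 14.20 in series 1 and 13.91 and 14.24 in series 4. The part of the series in the course was not tested. Mean log2 CPM of Cxcl1 was 2.33 at 0 hr and 9.47 at 6 hr (n = 5 each). It was 9.07 at 24 hr (n = 4), 7.45 at 48 hr (n = 6), and 5.38 at 72 hr and 1.79 at 168 hr (n = 4 each). With replicate 5 at 2.18, the SD of Cxcl1 at 6 hr was 4.13 and its median 11.23, above all 4 libraries at 24 hr (8.51 to 9.51). Ifit1 had a mean of 6.80 at 0 hr, 10.38 at 6 hr and 8.10 at 24 hr. Its mean of 6.73 at 48 hr lay within the spread of 0 hr (SD 0.26). Lcn2 had a median of 12.40 at 6 hr and 13.98 at 24 hr, and Selp of 8.98 and 8.97. Cav1 had a mean of 11.89 before LPS, 9.18 at 6 hr and 10.40 at 24 hr, reaching 11.80 by 72 hr, and Tek had 9.37, 6.99, 7.98 and 9.41 at these times. Aplnr had a lower mean at 24 hr, 4.51 ± 0.75 (SD, n = 4), than at 6 hr, 5.84 ± 1.15 (SD, n = 5), and was at 9.17 at 168 hr against 9.08 at 0 hr. These are descriptions of the levels, and differences between times after 6 hr were not tested.

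**Figure D5:**
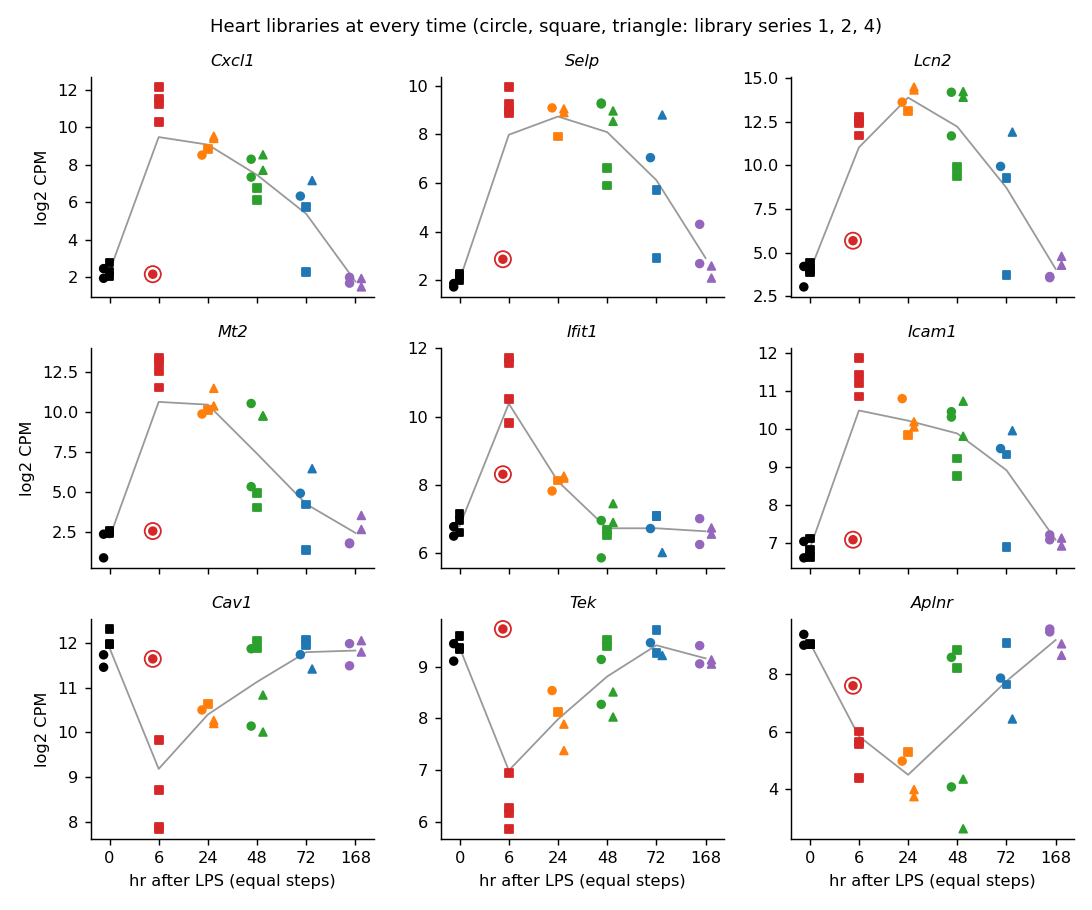
Log2 CPM of 9 genes in the heart libraries used from 0 to 168 hr, drawn at equal steps, with 1 point per library, a shape for each library series, a line through the means and a ring around the library labelled 6 hr replicate 5. Cxcl1 and Ifit1 have their highest median at 6 hr, Lcn2 its highest at 24 hr, and Cav1 and Tek their lowest at 6 hr.

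The response of heart was set against those of brain and lung by interaction terms in 1 fit of the 3 tissues at 0 and 6 hr. Heart and brain differed at 25 of 18975 genes, 24 with a larger (0.126%) and 1 with a smaller (0.00527%) change in heart, and without the 3 libraries of series 1 at 6 hr (heart replicate 5, brain replicate 6 and lung replicate 4) at 268 (1.38%) and 478 (2.45%) of 19480. Brain replicate 6 at 6 hr had a mean correlation of 0.962 with the brain libraries at 0 hr and 0.9003 with the other 4 at 6 hr, which in turn had 0.8984 to 0.9356 with 0 hr, and the brain response, like that of heart, was thus fitted with a library near 0 hr. Differences below are given with all libraries and, in brackets, without these 3. Slc7a5, a large amino acid carrier, changed by 3.88 (5.08) more in heart than in brain on the log2 scale (adjusted p = 0.0358 and 1.91e-05) and Sphk1 by 5.33 (5.63) more. Slc7a1, Pdgfa, Gadd45b and 2200002D01Rik also changed more in heart, by 2.49 (2.96), 4.06 (4.33), 3.99 (4.10) and 3.51 (3.95), and within heart they rose by 1.65 (1.98), 4.93 (5.40), 5.40 (5.86) and 3.79 (4.22). Of these 6 genes, only Slc7a5 kept its call in limma-voom.

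Heart and lung differed at 1253 genes with a larger (6.60%) and 1071 with a smaller (5.64%) change in heart, and without the same 3 libraries at 1566 (8.04%) and 1290 (6.62%) of 19480. The median difference of all genes was 0.37 under TMM and -0.18 in voom, so differences are to be read against that shift. The lung libraries had 3.405% to 33.87% of reads on genes at 6 hr, with as few as 284457 counts, against 18.83% to 56.16% at 0 hr, and their mean correlation with each other at 6 hr was 0.4387 to 0.5558, where the heart libraries had 0.8334 to 0.9425. Lung replicate 3 at 6 hr, the deepest of them with 40128330 counts, had a mean correlation of 0.8413 with lung at 0 hr and 0.5558 with the other lung libraries at 6 hr. It is kept in the values in brackets too. The part of these features in the differences from lung was not tested. Socs1 changed by 6.63 (6.93) more in heart than in lung, Ubd by 5.55 (5.86), Tmem252 by 5.50 (5.59), Pak4 by 5.36 (5.59), Bmp4 by 5.61 (5.99) and Ccl2 by 5.26 (5.20). The interferon-induced ubiquitin-like Ubd rose by 9.77 (10.36) in heart, Tmem252 by 7.79 (8.28) and the kinase Pak4 by 2.94 (3.39). Smaller or opposite changes in heart were those of Prg4 at -6.05 (-6.25), H19 at -5.46 (-5.41), mt-Co1 at -5.43 (-6.05), Vash1 at -5.26 (-6.001), Gm13456 at -4.99 (-5.28) and Etfdh at -4.86 (-4.76), that of H19 past the threshold with all libraries only (adjusted p = 0.0497 and 0.0505). Within heart these fell, at -1.16 (-1.57), -2.07 (-3.78), -1.30 (-1.70), -1.92 (-2.85), -0.84 (-1.03) and -0.89 (-1.10), the call for H19 being lost with any 1 of 0 hr replicates 1, 3, 4 and 5 or 6 hr replicates 1, 2, 3 and 4 left out and that for Gm13456 with any 1 of 0 hr replicates 4 and 5 or 6 hr replicates 1 and 3.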

How the data were processed

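RNA on HA-tagged ribosomes of heart ECs was sequenced in RiboTag EC mice at 0 hr and after LPS. The authors aligned reads to mm10 with STAR 2.4.2 and deposited HTSeq-count 0.6.1 counts per gene and sequencing run, without normalization. Annotation release and strand setting are not given in the sources used here. The counts of 31 runs were summed to 10 libraries, and 2 libraries under 3% of reads on genes were left out. The 5 rows that name no gene were kept out of library sizes and tests.

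Tests were run with edgeR 4.0.16 (R 4.3.3) over the 28 heart libraries used, with TMM scaling, filterByExpr, a term for library series and two-sided quasi-likelihood F tests, Benjamini-Hochberg adjusted at 0.05. The study's deposited labels name no batch, so library series were read from file names. Standard errors are the size of the log2 fold change over the square root of F. Log2 CPM used a prior count of 2. Heart was set against brain and lung by interaction terms over 18975 genes. Promoters came from RefSeq GRCm38.p6 and gene positions from GENCODE M21 on mm10.

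The 66 gene lists and the genes named were chosen with earlier results of these data known. The genes named were the 15 largest rises and falls without overlap between groups, the first 3 and up to 5 called members in each direction of each list, and up to 6 per direction of each interaction. Cxcl3 is named for its promoter. The promoters printed are, for 4 lists, that of the gene with the largest rise that holds a motif. Each fit was tested on simulated counts with 200 genes changed. Alternatives were DESeq2 1.42.0, limma-voom (limma 3.58.1), RLE scaling, ComBat (sva 3.50.0) before limma, leaving out the low-count filter or the series term, the replicate number as a block, other choices of libraries, robust dispersion, a log2 fold change of at least 1, a shorter promoter window and each replicate left out. Fits without 6 hr replicate 5 combined with other changes were added after seeing the data. Counting precision was limited by depth, from a floor of 3 counts at 0.1125 to 0.3064 CPM. Some results are not reported here. Figures used matplotlib 3.10.9.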

Additional observations from a re-analysis of the deposited data

Results flagged for a closer look

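The library labelled 6 hr replicate 5 stood apart from the other 4 libraries at 6 hr by Dixon's test at 1325 of 16024 genes tested (8.27%), against 47 to 224 genes for any other of the 10 libraries, and at 77 of the genes named here. Chance flags about 1 in 20 groups of values. The cause was not tested.

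Single libraries also stood apart from the other 4 of their time at single genes, by their log2 CPM. At 0 hr these were Cd14 in replicate 3 (1.16), Irak2 in replicate 1 (6.20), Tap1 in replicate 1 (7.41), Mt2 in replicate 2 (0.89), Jup in replicate 3 (9.46), Aplnr in replicate 2 (9.36), Bmp4 in replicate 3 (6.32), Cavin2 in replicate 5 (10.71), Cdkn1a in replicate 1 (8.69) and Itgb3 in replicate 4 (4.32). At 6 hr S1pr1 in replicate 3 (9.98) stood apart.

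The response differed between heart and brain, by an interaction term, at Sphk1 (5.33 more in heart on the log2 scale), Pdgfa (4.06), Gadd45b (3.99), Slc7a5 (3.88), 2200002D01Rik (3.51) and Slc7a1 (2.49). It differed between heart and lung at Socs1 (6.63), Bmp4 (5.61), Ubd (5.55), Tmem252 (5.50), Pak4 (5.36) and Ccl2 (5.26), and in the other direction at Prg4 (-6.05), H19 (-5.46), mt-Co1 (-5.43), Vash1 (-5.26), Gm13456 (-4.99) and Etfdh (-4.86).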

How the results depend on the processing

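Of genes named here, none called with all 10 libraries changed direction under any alternative, and 8 without a call did (B2m, Cldn5, Col4a1, Edn1, Ly96, Myh6, Tlr4 and Ttn). Of 174 called with all 10 libraries (adjusted p from 8.97e-06 to 0.0449) calls were lost most often with only 0 and 6 hr libraries in the fit (14 genes) and at a log2 fold change of at least 1 (10 genes). Without 6 hr replicate 5, 181 were called (1.26e-11 to 0.0295), and all but Nfkb1, Per1 and Pdgfra stayed called with each further library left out. The 3597 higher and 3257 lower genes became 1925 and 1748 with only 0 and 6 hr libraries and 2233 and 2034 at a log2 fold change of at least 1. Leaving out 1 replicate gave 2919 to 4453 higher and 2086 to 4879 lower genes, the lowest lower count without 6 hr replicate 1. With 6 hr replicate 5 left out, the lower count was 5058 in limma-voom, 4889 in DESeq2 and 4959 without 6 hr replicate 4 as well. Causes were not tested.

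Against brain, the 24 larger and 1 smaller responses became 4 and 10 in limma-voom and 268 and 478 without the 3 series 1 libraries at 6 hr, and the smaller ones 3 with RLE scaling and 0 with libraries of at least 1000000 counts or no series term. Against lung limma-voom gave 542 and 703. The share of reads on genes, by which the libraries were chosen, differed by -7.72 percentage points over all libraries (exact permutation p = 0.4805), and, given with no test, by -9.30 over libraries of at least 1000000 counts and by -12.7 without 6 hr replicate 5.

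Same-numbered libraries of the 2 times deviated from their group means with correlations of -0.1699 to 0.0850. The 6 hr mean included replicate 5, which stood apart, so these values cannot decide whether the numbers pair the libraries. With the replicate block, 3364 genes were higher and 3608 lower, and no 0 hr library correlated best with the 6 hr library of its own number. Depth limits genes near 3 counts, which stand for 0.1125 to 0.3064 CPM.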
